A study of Rattus norvegicus with 138 samples.

Results

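Serum microRNAs (miRNAs) of rats carrying nickel pellets in the calf muscle were compared with those of rats carrying cobalt pellets, 1, 3 and 6 months after surgery. The libraries were chosen by their labels alone: all 12 nickel (Ni) and all 12 cobalt (Co) libraries of these months, 24 of the 138 in the series. The animals were male Sprague-Dawley rats, 3 months old at surgery, with 8 rats per group. Each rat received 4 pellets, 2 in each gastrocnemius muscle, and each pellet was 1 mm wide and 2 mm long. Each metal has 4 libraries per month, and the labels do not say which rats they came from or whether a rat was sampled again at a later month. The p-values below therefore measure the spread between libraries. In the tests of single miRNAs that spread was estimated over the libraries of all metals together. Rats with tantalum (Ta) pellets had the same surgery and served as the surgical control, with 11 libraries over the same months. All comparisons were made with all libraries and again without those holding fewer than 20000 counts. Of the 6 such libraries in the series, 1 is a cobalt library of 1 month and 1 a nickel library of 3 months. The others belong to other metals and were left out of the fits with them.

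Nickel and cobalt ions both inhibit the prolyl hydroxylases that mark hypoxia-inducible factor (HIF) for destruction, so cells exposed to either metal can switch on hypoxia genes at normal oxygen. Both metals are carcinogenic in rodents. miR-210-3p is the miRNA most closely tied to HIF and is transcribed as a direct HIF target. Serum miRNAs come from blood cells, platelets, liver, endothelium and injured tissue such as muscle, and travel in vesicles or bound to protein. In serum, fewer cells releasing a miRNA and less miRNA released per cell cannot be told apart.

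The miRNAs on which the comparison turns are shown with their mature sequences, 5′ to 3′, taken from RefSeq (rat build GRCr8) with the seed, bases 2 to 8, in capitals. The seed is the stretch that pairs with target messages, so miRNAs with the same seed share many predicted targets. Of the 471 miRNAs in the table, 434 had a mature sequence there. The first 4 are shown because their seeds pair them up, the next 9 because they passed a test between the metals, and the last because of its tie to hypoxia.
miR-100-5p: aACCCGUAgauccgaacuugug
miR-99b-5p: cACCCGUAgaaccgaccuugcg
miR-501-3p: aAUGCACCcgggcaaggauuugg
miR-500-3p: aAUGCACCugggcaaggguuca
miR-29b-3p: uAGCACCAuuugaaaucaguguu
miR-148b-3p: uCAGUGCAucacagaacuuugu
miR-351-5p: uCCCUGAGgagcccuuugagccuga
miR-351-3p: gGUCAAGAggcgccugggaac
miR-7a-5p: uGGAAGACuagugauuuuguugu
miR-23b-3p: aUCACAUUgccagggauuacc
miR-9a-5p: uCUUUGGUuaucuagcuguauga
miR-103-3p: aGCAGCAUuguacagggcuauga
miR-25-5p: aGGCGGAGacacgggcaauugc
miR-210-3p: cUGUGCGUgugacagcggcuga
miR-100-5p and miR-99b-5p are the same length, 22 bases, and differ at 4 of them, A1C, U11A, A16C and U21C, with positions counted from the 5′ end and the miR-100-5p base first. miR-103-3p differs from miR-107-3p at a single base, G22C. miR-501-3p and miR-500-3p lie close together on the X chromosome, at chrX:17927239-17927261 and chrX:17930695-17930716. miR-351-5p shares its seed with miR-125a-5p and miR-125b-5p and is read from chrX:137725157-137725181, minus strand. miR-210-3p is the only miRNA of the table with its seed among those with a sequence, and lies at chr1:205755946-205755967, minus strand. miR-99a-5p and miR-30e-3p are named below without a sequence.

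Depth differed between months and within groups, and 1 cobalt and 1 nickel library stood apart. At 1 month the 4 nickel libraries held 577692 to 2441924 counts and detected 197 to 233 miRNAs. The 4 cobalt libraries of that month held 12213 to 1913380 counts and detected 53 to 260, with both low values in cobalt replicate 1. At 3 months nickel spanned 3343 counts with 42 miRNAs (replicate 3) to 1081700 counts with 153, and cobalt 115671 to 214004 counts with 72 to 90. At 6 months nickel held 771540 to 1661406 counts with 189 to 260 miRNAs, and cobalt 415102 to 1990414 with 145 to 243. Liver marker miRNAs, a usual part of serum, were present in all 24 libraries. For 30 of the 305 miRNAs detected in at least 10 libraries of the series, every deposited count is a multiple of a whole number between 2 and 9, called the step here, and why is not given in the sources used here. For these miRNAs the limit allowed by a count of 0 was taken as 3 steps over a group.

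**Figure D1:**
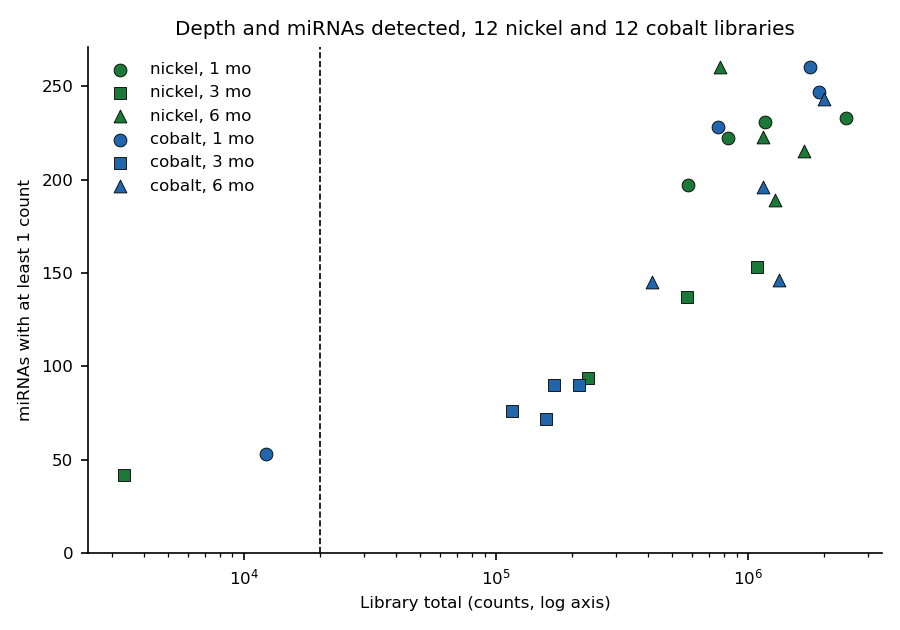
Library total in counts (log axis) against the number of miRNAs with at least 1 count, 1 point per library, coloured by metal and shaped by month; the dashed line marks 20000 counts. The 4 cobalt libraries of 3 months sit together between 72 and 90 miRNAs, below the 3 nickel libraries of that month with more than 20000 counts (94 to 153).

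At 3 months the nickel serum libraries held more kinds of miRNA than the cobalt ones, once the shallow nickel library was set aside. Nickel detected 137, 153 and 94 miRNAs in its 3 deeper libraries and cobalt 72, 90, 76 and 90. The groups did not overlap. The mean was 128 ± 30.5 (SD, n = 3) in nickel and 82 ± 9.38 (SD, n = 4) in cobalt, a difference of 46 (exact two-sided permutation test, p = 0.0286, the smallest p this design allows). The fourth nickel library was left out for its low total, which moves with the number detected, so this p holds only given that choice. The 3 nickel libraries were also deeper, by 0.513 on the log10 scale of the total, which is given without a test because the total decided which library was left out. Drawn down to the same 115671 counts, nickel still held 93.7 to 148 miRNAs against 71.9 to 89.7 in cobalt, a difference of 43.7 (exact permutation p = 0.0286, again without the shallow nickel library). With all 8 libraries the difference was 24.5 miRNAs (exact permutation p = 0.343) and the totals differed by -0.035 on the log10 scale (exact permutation p = 1). Depth, breadth and a red-cell ratio were compared at each month, 9 comparisons in all, and with all libraries the smallest exact permutation p among them was 0.229, for breadth at 6 months. None of these p-values is adjusted.

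Averaged over the 3 months, 10 of 320 miRNAs tested differed between the metals, and all 10 were higher with nickel (3.12% of those tested; edgeR quasi-likelihood test, Benjamini-Hochberg adjusted p under 0.05). They were miR-501-3p, miR-9a-5p, miR-29b-3p, miR-148b-3p, miR-351-3p, miR-30e-3p, miR-7a-5p, miR-351-5p, miR-23b-3p and miR-100-5p. The group holds both arms of miR-351, a rodent miRNA of the X-linked miR-322 cluster. It also holds miR-29b-3p, which represses collagen messages, and miR-9a-5p, made mainly in neurons. For 8 of the 10 the fitted log2 difference was 7.12 to 13.03 at 3 months and -0.80 to 3.07 at the other months. Without the libraries under 20000 counts miR-501-3p was the only one left (1 of 326, 0.307%). At an unadjusted p under 0.05, 53 miRNAs (16.6%) differed, 47 higher with nickel (14.7%) and 6 higher with cobalt (1.88%). DESeq2, a second tool, called 63 (19.7%), 58 higher with nickel and 5 with cobalt, which included 9 of the 10. Averaged over 1 and 6 months only, 0 of 320 passed in edgeR, and 18 (5.62%) had an unadjusted p under 0.05, 14 higher with nickel (4.38%) and 4 with cobalt (1.25%). Leaving out single libraries in turn gave 0 to 19 calls. There were 0 without nickel replicate 2 of 3 months, cobalt replicate 2 of 1 month or cobalt replicate 3 of 6 months, and 1 without cobalt replicate 4 of 1 month or replicate 1, 3 or 4 of 3 months. There were 4 without nickel replicate 1 or cobalt replicate 2 of 6 months, 5 without cobalt replicate 1 of 6 months, 6 without nickel replicate 4 of 6 months or cobalt replicate 3 of 1 month, and 19 without nickel replicate 1 of 3 months. No cobalt-higher miRNA passed in edgeR, and the smallest edgeR adjusted p among them was that of miR-181b-5p (0.107, log2 -2.87). The levels given below are CPM, counts scaled to a common library size with TMM, edgeR's library scaling.

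**Figure D2:**
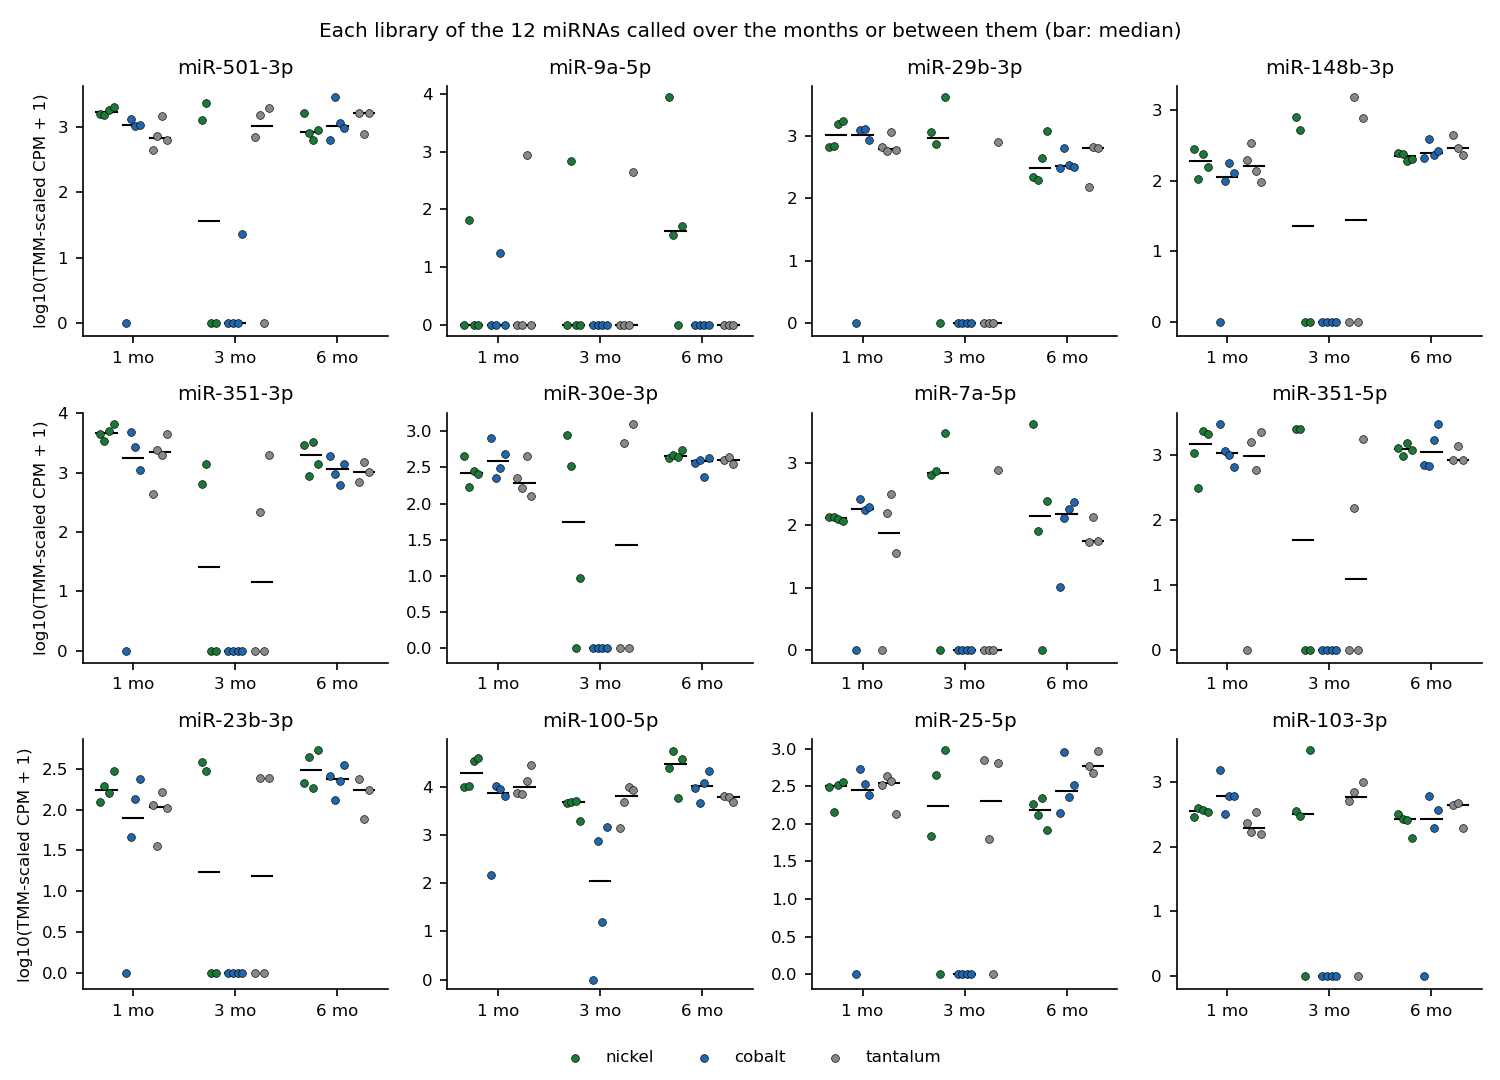
log10(TMM-scaled CPM + 1) of the 12 miRNAs that passed the test over the months or between months, 1 panel each, 1 point per library for nickel, cobalt and tantalum at 1, 3 and 6 months; bars mark medians. In most panels the cobalt points of 3 months lie at 0 while at least 2 nickel points of that month lie above 0, and the metals overlap at 6 months.

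miR-501-3p comes from a cluster on the X chromosome and had the smallest p of the average. Its 3-month level was 1292, 2369, 0 and 0 CPM in the nickel libraries (replicates 1 to 4) and 0, 0, 0 and 21.9 CPM in cobalt, where the last value rests on 5 counts. Nickel replicates 1 and 2 held all of the nickel signal, and nickel replicate 4, with 231109 counts, read 0. At 1 month the nickel libraries read 1567, 1540, 1818 and 2023 CPM against 0, 1325, 1053 and 1084 in cobalt. All 4 nickel values lay above all 4 cobalt values there, a separation that was lost on plain library totals. At 6 months nickel read 1668, 801.7, 635.8 and 888.6 CPM and cobalt 636.6, 2856, 1145 and 954.2, so the groups overlapped. The average log2 difference, nickel minus cobalt, was 2.50 (SE 0.65, adjusted p = 0.0319, edgeR quasi-likelihood test), made of 0.80 at 1 month, 7.12 at 3 months and -0.43 at 6 months in the same fit. Without the 6 libraries under 20000 counts, called shallow below, it was 2.63 (adjusted p = 0.0154, edgeR).

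miR-29b-3p was among the miRNAs read with nickel and in no cobalt library at 3 months. Nickel replicates 1 to 4 read 1138, 736, 0 and 4074 CPM and all 4 cobalt libraries read 0. The 0 in nickel belongs to the library of 3343 counts, so the 3 deeper nickel libraries all lay above cobalt. Every count of miR-29b-3p in the 138 libraries is a multiple of 5, so the limit set by 0 was 15 counts over the cobalt group, and the nickel mean was at least 66.5-fold higher. At 1 month (657 to 1703 CPM in nickel; 0, 1225, 1267 and 862 in cobalt) and at 6 months (191.8 to 1165 in nickel, 307 to 635 in cobalt) the metals overlapped. Its average log2 difference was 4.57 (SE 1.26, adjusted p = 0.0329, edgeR), and 4.57 without the shallow libraries (adjusted p = 0.0511).

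miR-7a-5p, which is abundant in endocrine and neural cells, read 638, 728, 0 and 3013 CPM with nickel at 3 months. It was not seen in any cobalt library of that month, which puts the nickel mean at least 245-fold higher. miR-30e-3p, the other arm of a widely expressed miR-30 member, read 889, 334, 0 and 8.49 CPM against 0 in all cobalt libraries, at least 68.8-fold higher, and its value of 8.49 CPM rests on 2 counts. miR-148b-3p, a member of the miR-148 and miR-152 seed group, read 787, 521, 0 and 0 CPM (at least 73.1-fold higher). miR-23b-3p, a close copy of miR-23a-3p, read 386, 292, 0 and 0 CPM (at least 37.9-fold higher). These miRNAs were read in nickel replicates 1 and 2 throughout, in replicate 4 only for some, and never in replicate 3.

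Both arms of miR-351 behaved alike at 3 months. miR-351-5p read 2547, 2474, 0 and 0 CPM with nickel, and miR-351-3p 658, 1408, 0 and 0 CPM, while all 4 cobalt libraries read 0 for both. The nickel means were at least 70.1-fold and 28.9-fold higher, with the limit at 12 counts over the group because the counts of both arms are multiples of 4. At 6 months miR-351-5p read 982 to 1508 CPM in nickel and 688 to 3018 in cobalt, and the cobalt range enclosed that of nickel. The average log2 differences were 4.18 (SE 1.24, adjusted p = 0.0395) for miR-351-5p and 4.43 (SE 1.24, adjusted p = 0.0329) for miR-351-3p (edgeR). Of the 10 miRNAs of the X-linked miR-322 cluster tested in the average, these 2 passed, both higher with nickel, beside 3.12% of all 320 miRNAs. Neither passed without the shallow libraries (adjusted p = 0.0511 for both, edgeR).

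miR-9a-5p differed by single libraries. It was read in 5 of 12 nickel and 1 of 12 cobalt libraries: at 63.5 CPM in nickel replicate 2 at 1 month, at 686 CPM in nickel replicate 2 at 3 months, at 8815, 34.5 and 50.5 CPM in nickel replicates 1, 2 and 4 at 6 months, and at 16.7 CPM in cobalt replicate 3 at 1 month. The average log2 difference was 8.41 (SE 2.14, adjusted p = 0.0319, edgeR). It was 5.14 without nickel replicate 2 of 3 months and 6.14 without nickel replicate 2 of 1 month (edgeR adjusted p = 1 for both). Without nickel replicate 1 of 6 months the log2 difference was 6.49 (edgeR adjusted p = 0.0733).

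miR-100-5p had a fitted log2 difference of 1.61 or more at each of the 3 months, and is with miR-9a-5p (1.52 or more) the only called miRNA above 1 at all 3. It belongs with miR-99a-5p and miR-99b-5p to a family found in vascular and many other cells, which represses components of the mTOR and IGF1 receptor pathway. At 3 months nickel read 4625, 4822, 5068 and 1957 CPM, and cobalt 0, 744, 14.8 and 1477. All 4 nickel libraries lay above all 4 cobalt libraries, also when CPM was computed from plain library totals. The value of 5068 CPM rests on 19 counts in the library of 3343, and the cobalt values on 0, 134, 2 and 337 counts. At 1 month nickel read 9737, 10568, 34460 and 40376 CPM against 149, 10517, 8797 and 6442 in cobalt. At 6 months it read 24646, 56126, 5824 and 36799 against 9540, 4530, 11699 and 21163, and the groups overlapped at both of these months. Tantalum libraries read 4764 to 6329 CPM at 6 months, 7125 to 27929 at 1 month and 1366 to 10059 at 3 months. The average log2 difference was 2.16 (SE 0.65, adjusted p = 0.0395, edgeR), made of 1.66, 3.21 and 1.61 at 1, 3 and 6 months. Over 1 and 6 months alone it was 1.63 (edgeR adjusted p = 0.696), and without the shallow libraries 1.90 (adjusted p = 0.139).

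**Figure D3:**
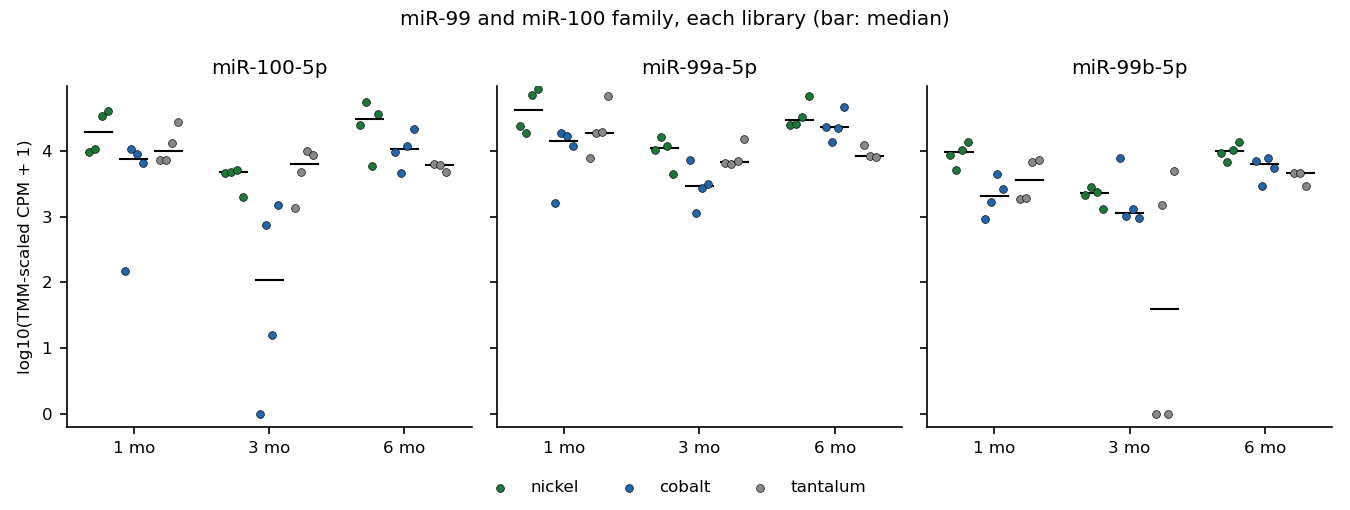
log10(TMM-scaled CPM + 1) of the miR-99 and miR-100 family, 1 point per library for nickel, cobalt and tantalum at 1, 3 and 6 months; bars mark medians. The nickel median of miR-100-5p lies above the cobalt median at each month, and miR-99b-5p at 1 month has all 4 nickel points (5169 to 13388 CPM) above all 4 cobalt points (925 to 4380 CPM).

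The relatives of miR-100-5p gave mixed values. miR-99b-5p, with the same seed, read 8638, 5169, 10368 and 13388 CPM with nickel at 1 month and 925, 1683, 4380 and 2580 with cobalt, without overlap on either CPM scale. The log2 difference was 1.97 (SE 0.70, adjusted p = 0.7, edgeR), and 1.66 without cobalt replicate 1. At 3 months it was -0.35. miR-99a-5p read 24101, 18517, 70173 and 86488 CPM with nickel at 1 month and 1612, 18511, 16928 and 11889 with cobalt (log2 2.02, adjusted p = 0.7), a separation of the groups that was lost on plain library totals. In the average over months miR-99a-5p was not called with the deposited counts and was called by edgeR when counts were divided by their step (log2 1.74, adjusted p = 0.0468).

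The difference between the metals changed with the month for 7 of 320 miRNAs (2.19%; edgeR quasi-likelihood test of both changes between months together, adjusted p under 0.05). They were miR-501-3p (adjusted p = 0.012), miR-25-5p, miR-30e-3p and miR-103-3p (each 0.0123), miR-351-5p and miR-148b-3p (each 0.0198) and miR-29b-3p (0.0215). For all 7 the difference was larger at 3 months than at 1 month. miR-103-3p, a broadly expressed miRNA of the miR-15 and miR-107 group, read 349, 292, 0 and 3022 CPM with nickel and 0 in all cobalt libraries at 3 months, at least 102-fold higher. At 1 month it read 285 to 394 CPM with nickel and 317 to 1492 with cobalt. miR-25-5p, the minor arm of miR-25, read 67.3, 446, 0 and 946.5 CPM with nickel and 0 with cobalt at 3 months, at least 81.5-fold higher, and 142 to 362 CPM with nickel against 0 to 542.1 with cobalt at 1 month. The same 7 passed without the shallow libraries (7 of 326, 2.15%). Leaving out cobalt replicate 1 of 3 months left 0 calls, and leaving out cobalt replicate 3 or 4 of that month left 1.

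The tantalum controls read some of these miRNAs at 3 months at levels like those of nickel. Tantalum replicate 4, the deepest control library of 3 months with 2195682 counts, read 797 CPM for miR-29b-3p, 1766 for miR-351-5p, 763 for miR-7a-5p and 978 for miR-103-3p. The other 3 tantalum libraries read 0 for miR-29b-3p and miR-7a-5p. For miR-501-3p the 4 tantalum libraries read 694, 1537, 0 and 1934 CPM. The zero in tantalum replicate 3 comes from a library of 1645 counts. The neutrophil marker miR-223-3p made up 0.327% to 1.18% of the counts in the cobalt libraries of 3 months and 0% to 0.567% in the nickel ones. The part that it, library depth or the narrow detection of the cobalt libraries has in the 3-month values was not tested.

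At 1 month no miRNA passed the test: 0 of 270 (0%) by edgeR, with 16 at an unadjusted p under 0.05 (5.93%), 8 higher with each metal (2.96% each). DESeq2 called 2 (0.741%, with 18 at an unadjusted p under 0.05, 6.67%), miR-423-3p and miR-322-5p, both higher with cobalt. miR-423-3p read 14385 CPM in cobalt replicate 1, the library of 12213 counts, and 1648, 1961 and 1099 in the other cobalt libraries, against 938 to 1580 with nickel. Its log2 difference of -1.93 (edgeR adjusted p = 0.256) was -0.36 without that library, and it was called by edgeR when cobalt replicate 2, 3 or 4 was left out instead. miR-322-5p, an X-linked miRNA induced during muscle differentiation, was read at 49.5 and 29.1 CPM in cobalt replicates 2 and 3 only. Without the shallow library 0 of 289 miRNAs passed, with 14 at an unadjusted p under 0.05 (4.84%).

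A few miRNAs separated the metals library by library at 1 month, in numbers that moved with the scaling. On TMM-scaled CPM, 9 miRNAs (3.33%) had all nickel libraries above all cobalt libraries and 1 (0.37%) the reverse. On plain library totals these were 2 (0.741%) and 4 (1.48%). Without the shallow cobalt library they were 11 (3.81%) and 8 (2.77%) on TMM-scaled CPM, and 2 (0.692%) and 25 (8.65%) on plain library totals. With all libraries, the 3 that separated on both scales were miR-99b-5p and miR-500-3p, higher with nickel, and miR-107-3p, higher with cobalt. miR-500-3p, which shares the seed of miR-501-3p, read 4.42, 7.47, 10.9 and 25.2 CPM with nickel and 0 in all cobalt libraries, at least 22.3-fold higher (adjusted p = 0.7, edgeR). miR-107-3p read 68.4 to 99.7 CPM with nickel and 746, 123, 211 and 132 with cobalt. The TMM factors lay apart at this month, with a median of 0.749 for nickel and 1.29 for cobalt.

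At 3 months edgeR called 0 of 167 miRNAs (0%), with 37 at an unadjusted p under 0.05 (22.2%), 34 of them higher with nickel (20.4%) and 3 with cobalt (1.8%). DESeq2 called 24 (14.4%), 22 higher with nickel and 2 with cobalt. The 2 were miR-181b-5p and miR-15b-3p, and each was read in cobalt replicate 4 alone, at 614 and 149 CPM. The set of miRNAs tested depended on the other metals, because the low-count filter was applied anew to the libraries fitted. With only nickel and cobalt fitted, miRNAs read in fewer than 4 of their libraries were not tested. This took out miRNAs read in some nickel and no cobalt libraries, such as miR-29b-3p. Among the miRNAs left, 1 of 83 (1.2%) had an unadjusted p under 0.05. Of those 83, 40 were higher with nickel and 43 with cobalt (median log2 -0.05). With the shallow library also left out, 8 of 99 (8.08%) had an unadjusted p under 0.05. Counted by detection alone, 7 miRNAs (3.65% of those read in any nickel or cobalt library of the month) were present in at least 3 nickel libraries and in no cobalt library, and none the other way round. Without the shallow libraries of 3 months 0 of 180 passed and 28 had an unadjusted p under 0.05 (15.6%), and the miRNAs with all nickel libraries above all cobalt ones went from 1 (0.599%) to 15 (8.33%). miR-30e-5p was the single miRNA with all cobalt libraries higher on TMM-scaled CPM (14172 to 27021 CPM against 1803 to 11591, 0.599%), and this separation was lost on plain library totals.

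At 6 months edgeR called 0 of 272 (0%), with 11 at an unadjusted p under 0.05 (4.04%), 10 of them higher with nickel (3.68%) and 1 with cobalt (0.368%). DESeq2 called 1 (with 5 at an unadjusted p under 0.05, 1.84%), miR-19b-3p, read at 20.8 and 44.1 CPM in 2 nickel libraries and at 0 in the others. No library of this month was under 20000 counts. The 3 smallest p-values belonged to miR-9a-5p, miR-184 and miR-124-3p, of which miR-9a-5p and miR-124-3p are made chiefly in neurons and miR-184 in eye, brain and skin. Their levels were set by nickel replicate 1. miR-184 read 107784 CPM there and 95.9, 52.6 and 412 CPM in the other nickel libraries, against 61.9 to 123.9 in cobalt (log2 8.28, adjusted p = 0.21, edgeR). Without that library its log2 difference was 1.10 (adjusted p = 1, edgeR). miR-124-3p read 2169, 112, 23.7 and 0 CPM with nickel and 0 in all cobalt libraries. The 2 neuronal miRNAs together made up 0.00157% to 0.636% of the counts of the nickel libraries and were at 0 in all 4 cobalt libraries. When miRNAs with low counts were kept in the fit, edgeR called miR-9a-5p, miR-184, miR-124-3p and miR-1b.

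**Figure D4:**
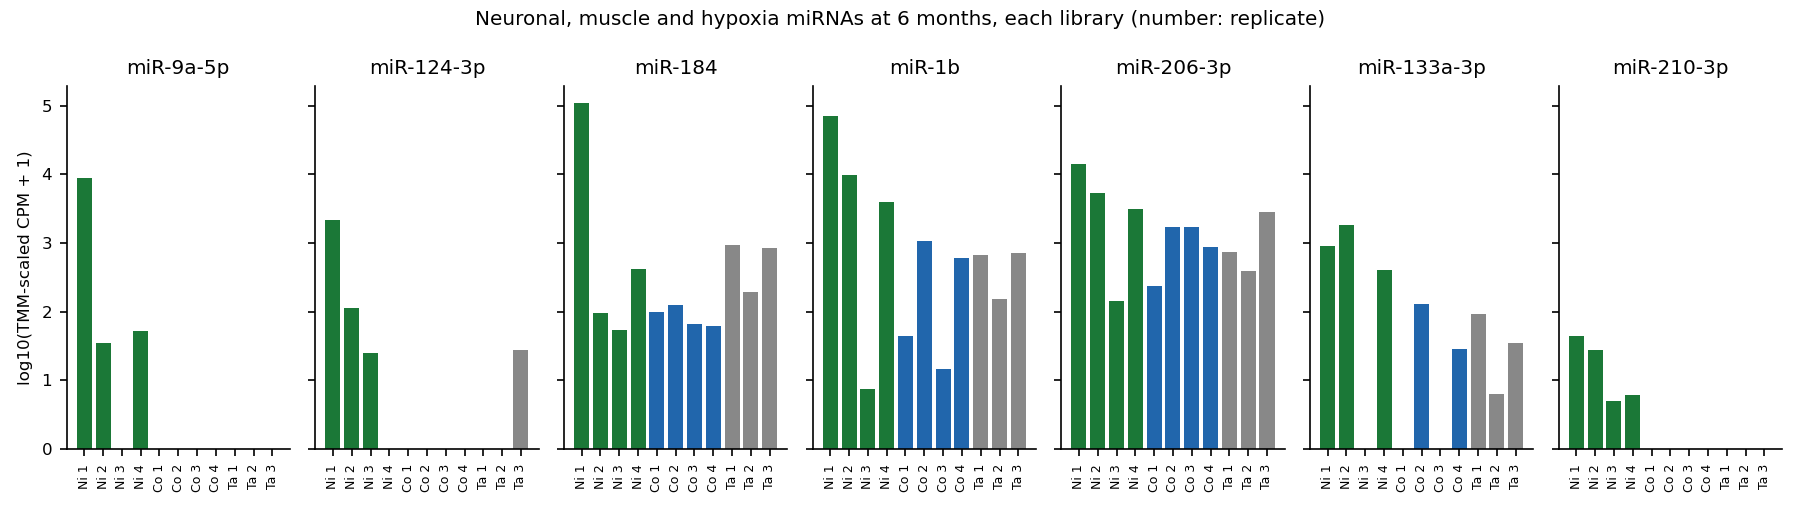
log10(TMM-scaled CPM + 1) at 6 months in each nickel, cobalt and tantalum library (number: replicate) for neuronal, muscle and hypoxia miRNAs. Nickel replicate 1 carries the highest bars for miR-9a-5p (8815 CPM), miR-124-3p (2169 CPM) and miR-184 (107784 CPM), while miR-210-3p is above 0 in all 4 nickel libraries and in none of the others.

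miR-210-3p, the HIF-induced miRNA, was read in nickel libraries and in no cobalt library. At 6 months it stood at 43.7, 26.8, 3.94 and 5.05 CPM with nickel, from 42, 28, 3 and 6 counts, and at 0 in all 4 cobalt and all 3 tantalum libraries. The nickel mean was at least 27.9-fold higher than cobalt (adjusted p = 0.937, edgeR), and the groups did not overlap on either CPM scale. At 1 month nickel replicates 1 and 4 held 5 and 7 counts, the cobalt libraries 0, and 1 tantalum library 2 counts. At 3 months all nickel, cobalt and tantalum libraries read 0. At 6 months 6 miRNAs (2.21%) had all nickel libraries above all cobalt libraries on TMM-scaled CPM and 2 (0.735%) on plain totals. The 2 were miR-210-3p and miR-125b-2-3p, the latter at 397 to 569 CPM with nickel and 33.6 to 243 with cobalt.

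Of the 18 hypoxia-linked miRNAs listed, miR-210-3p among them, 16 entered the average and 0 passed edgeR's test, beside 3.12% of all 320. Several of these gave an F statistic near 0 in edgeR's test. The SE, worked out from the log2 difference and F, is then very large. For miR-210-3p, at 0 in both metals at 3 months, the log2 difference was 4.13 with an SE of 7348. For miR-322-5p it was -2.52 with an SE of 69822. Their result says nothing about the metals. An unadjusted p under 0.05 was found for 3, miR-503-5p, miR-103-3p and miR-107-3p, all higher with nickel, beside 14.7% of all 320 miRNAs, so their number is near the background. The median log2 difference was 1.02, the members without a usable SE included, beside 0.43 over all miRNAs tested. At 3 months 6 of 8 tested lay higher with nickel, beside 96 of all 167, with a median of 6.27. Of these 8, 4 were at 0 in 1 of the metals, and with those set at their limits the median was 3.24, beside 0.49 over all miRNAs. At 1 month 9 of 14 were positive with TMM scaling, and 5 of 14 with no scaling factor or without the shallow library. Over all miRNAs tested these shares were 165 of 270, 103 of 270 and 134 of 289. At 6 months 9 of 12 were positive, beside 158 of all 272, with a median of 0.70.

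Muscle, red-cell and let-7 miRNAs each lay on one side at 6 months, though none of their members passed the test. All 8 muscle miRNAs tested were higher with nickel (median log2 2.65, beside 0.31 over all 272), under each of the 5 scalings and tools tried. miR-206-3p, made in skeletal muscle, read 14194, 5405, 141 and 3119 CPM with nickel and 234, 1733, 1686 and 885 with cobalt (log2 2.33, adjusted p = 0.937, edgeR). miR-133a-3p, made in skeletal and cardiac muscle, read 916, 1852, 0 and 403 CPM with nickel and 0, 130, 0 and 27.9 with cobalt. miR-1b read 71139, 9663, 6.57 and 3884 CPM with nickel and 43.2, 1084, 13.4 and 612 with cobalt. Nickel replicate 3 was low for all 3, and the groups overlapped. At 1 month 2 of 6 muscle miRNAs were positive and at 3 months 2 of 5, and the difference between months was not called for any muscle miRNA. The 4 marker miRNAs of skeletal muscle made up 0.0127% to 1.76% of the counts in nickel libraries and 0.0248% to 0.393% in cobalt libraries at 6 months.

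**Figure D5:**
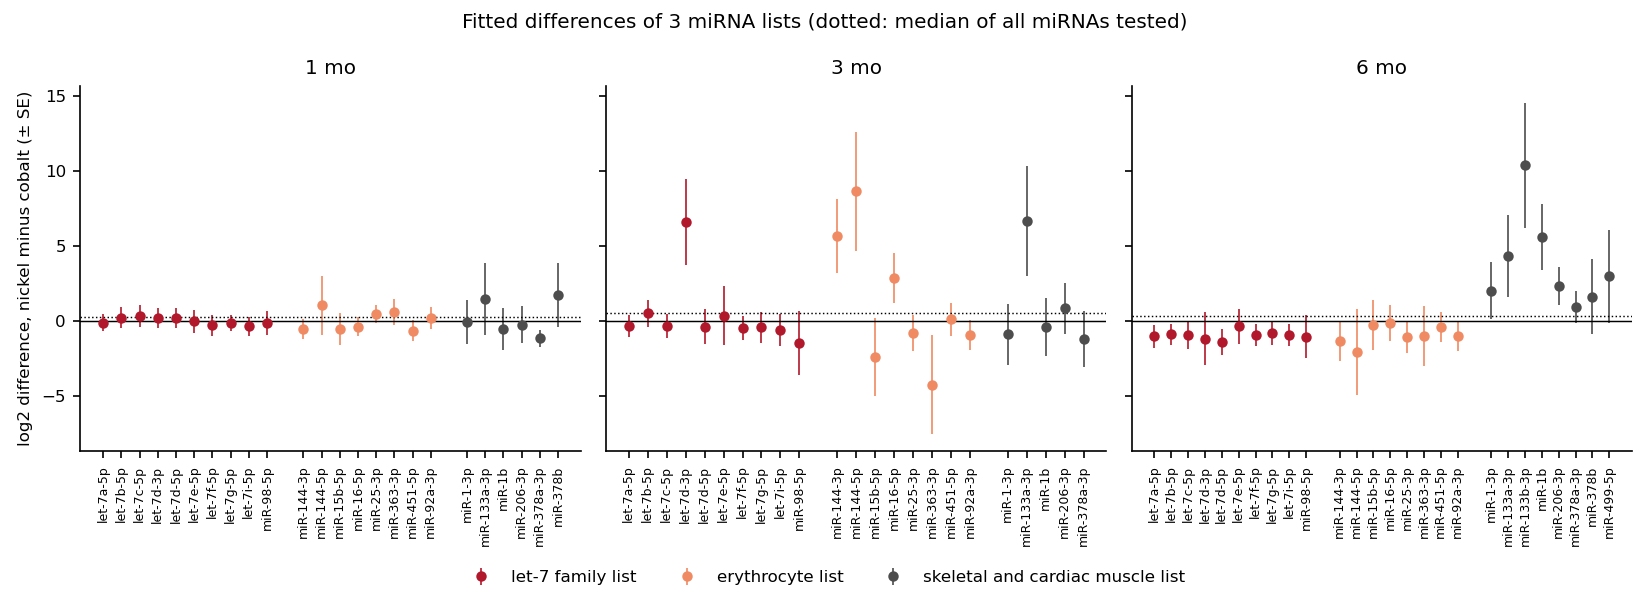
Fitted log2 difference, nickel minus cobalt, with its SE for each tested member of 3 miRNA lists at 1, 3 and 6 months; the solid line marks 0 and the dotted line the median of all miRNAs tested. At 6 months the muscle members all lie above 0, and the let-7 and red-cell (erythrocyte) members all lie below it.

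The let-7 family, which represses growth genes and is among the most abundant families of serum, pointed the other way at 6 months. All 10 members were lower with nickel (median log2 -0.95, beside 0.31 over all miRNAs) under each of the same 5 settings. let-7d-5p read 356, 1232, 1869 and 1562 CPM with nickel and 2610, 2917, 3626 and 4388 with cobalt, without overlap (log2 -1.43, adjusted p = 1, edgeR). At 1 month 4 of 10 were positive, and 0 of 10 with no scaling factor or without the shallow library. At 3 months 3 of 10 were positive, and 5 of 10 with TMMwsp scaling. The members share sequence and are not independent of each other.

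The 8 red-cell miRNAs tested at 6 months were also all lower with nickel (median log2 -1.04), again under the 5 settings. The share of counts from the 4 red-cell markers was not lower by its median. It was 0.348% with nickel (0.0878% to 0.595%) and 0.311% with cobalt (0.182% to 1.55%). The highest cobalt share, 1.55%, was that of replicate 2. miR-451-5p, the miRNA released by ruptured red cells, read 5541, 3003, 677 and 962 CPM with nickel and 834, 8177, 2110 and 2481 with cobalt, with overlap. The log2 ratio of miR-451-5p to miR-23a-3p, used as a sign of haemolysis, differed by -1.40, nickel minus cobalt (exact permutation p = 0.286). At 3 months the ratio differed by -1.75 (exact permutation p = 0.543) and at 1 month by -2.37 (exact permutation p = 0.743). The 1-month difference became 0.154 without cobalt replicate 1, whose ratio of 7.61 was the highest of the month. Without cobalt replicate 3 of 3 months, with a ratio of 8.84, the 3-month difference became 0.209. miR-23a-3p was not read in either of these libraries, so both ratios rest on the 1 added to its count. Of the 8 neuronal and brain miRNAs tested at 6 months, 7 were positive, beside 158 of all 272 miRNAs. Of the 7, 2 had an unadjusted p under 0.05 (edgeR), beside 4.04% of all 272. They were miR-9a-5p and miR-124-3p, whose levels were set by nickel replicate 1. Among the 8, 4 were at 0 in 1 of the metals. With those set at their limits the median log2 went from 4.74 to 2.45.

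Among the other lists, calls in the average were few. Fibrosis miRNAs gave 1 of 8 (miR-29b-3p), inflammation 1 of 8 and brain 1 of 9 (miR-9a-5p in both), kidney 1 of 11 (miR-30e-3p) and the X-linked miR-322 cluster 2 of 10, all higher with nickel, beside 3.12% of all miRNAs tested. Red-cell, liver, platelet and endothelium, lymphocyte and myeloid, p53, let-7, miR-17-92 and epithelium lists gave 0. Some listed members again had an F statistic near 0, such as miR-199a-5p of the fibrosis list (log2 1.57, SE 5525). Their result says nothing about the metals. miR-21-5p, raised in fibrosis and inflammation, read 1605 to 3868 CPM with nickel and 1834 to 2469 with cobalt at 6 months (log2 0.40, adjusted p = 1, edgeR). miR-122-5p, made by hepatocytes, read 23728 to 148737 CPM with nickel and 44864 to 90224 with cobalt at 6 months (log2 0.09, adjusted p = 1).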

How the data were processed

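Total RNA from serum was made into small-RNA libraries (Norgen kit) and sequenced on a NextSeq 500, per the labels' protocols. The authors deposited a table of raw read counts, not normalized, for 471 miRNAs in 138 libraries. The submitters' processing notes name the build Rnor_6.0, and the counting program is not given in the sources used here. Nickel and cobalt were compared with edgeR 4.0.16 in R 4.3.3 (TMM scaling, filterByExpr with a minimum count of 10 and a minimum total of 15, quasi-likelihood test, Benjamini-Hochberg adjustment, called at adjusted p under 0.05). A month's test was fitted on all metals' libraries of that month, and the average and between-month tests on all 138 libraries in 35 groups, which share 1 estimate of the spread. The log2 differences are nickel minus cobalt. The SE given with one is its absolute value divided by the square root of the F statistic of edgeR's test. DESeq2 1.42.0 was the second tool.

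Library totals of the 24 libraries ran from 3343 to 2441924 counts, and none of the 36 replicate pairs held identical values. A count of 0 was read as allowing up to 3 counts over a group (3 steps where counts come in steps), which covers counting error only. The red-cell ratio is log2 of miR-451-5p over miR-23a-3p, with 1 added to each count. A miRNA was detected in a library if it had at least 1 count. Named miRNAs are those called in a test or with the smallest p at 1, 3 or 6 months, in the average or between months. A fixed panel of hypoxia, muscle, liver, red-cell and inflammation miRNAs and members of the lists described are named too. MiRNAs named by detection or by libraries that do not overlap (miR-19b-3p, miR-15b-3p, miR-107-3p, miR-125b-2-3p, miR-30e-5p) were chosen after their values were seen. The members and the 15 lists (130 names, 122 in the table) were chosen with earlier results of these data known. Scripts were tested on simulated data. Same-numbered replicates of the metals were checked for pairing (12 correlations, -0.105 to 0.106) and were not paired.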

Additional observations from a re-analysis of the deposited data

Results flagged for a closer look

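Of 81 groups of 4 libraries examined, 14 held a library that lay far from the other 3. This was measured as the gap to its nearest neighbour over the range of the group. A rate of 1 in 20 would give about 4.05, but that rate takes independent groups with normal values. Here the miRNAs, miR-210-3p apart, were ones called in these data, and the same libraries recur. A miRNA read in 1 library of its group gives 1.000 whatever its level. The 14 and 4.05 therefore cannot be compared as a test. Most concern cobalt replicate 1 of 1 month, the library of 12213 counts. It had the lowest number of miRNAs detected (0.845), the highest red-cell ratio (0.909) and the lowest level of miR-501-3p (0.968), miR-29b-3p (0.946), miR-7a-5p (0.926), miR-100-5p (0.885), miR-148b-3p (0.884) and miR-25-5p (0.869). miR-9a-5p was read in 1 library of its group only, nickel replicate 2 at 1 month, cobalt replicate 3 at 1 month and nickel replicate 2 at 3 months (1.000 each). miR-501-3p was read at 3 months in cobalt replicate 4 alone (1.000). miR-100-5p was lowest in nickel replicate 4 at 3 months (0.904), and miR-29b-3p highest in cobalt replicate 2 at 6 months (0.860).

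The nickel minus cobalt difference itself changed between the months for miR-501-3p (edgeR adjusted p = 0.012), miR-25-5p, miR-30e-3p and miR-103-3p (each 0.0123), miR-351-5p and miR-148b-3p (each 0.0198) and miR-29b-3p (0.0215). In these 7 the log2 difference was larger at 3 months than at 1 month by 6.32 (miR-501-3p) to 13.60 (miR-103-3p), while 6 months differed from 1 month by -1.23 (miR-501-3p) to 1.33 (miR-30e-3p).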

How the results depend on the processing

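With DESeq2, 2 miRNAs were called at 1 month, 24 at 3 months, 1 at 6 months, 63 in the average and 14 between months. Without the low-count filter 4 were called at 6 months, 21 in the average and 12 between months. Without libraries under 20000 counts the average gave 1 call, with RLE size factors 4, and with only nickel and cobalt fitted 5. Of the settings chosen after seeing the data, 1 and 6 months alone gave 0 calls with and 0 without the shallow libraries, no scaling factor gave 1 at 1 month and 4 in the average, and nickel and cobalt alone without shallow libraries gave 14 in the average and 12 between months. TMMwsp scaling gave 10 and 7, and dividing counts by their step 13 (9 of the 10 shared) and 6 (all among the 7). Over 1 and 6 months alone the log2 difference reversed for miR-30e-3p (-0.14) and miR-351-5p (-0.12), and for miR-501-3p (-0.0318) when shallow libraries were also left out. The cause was not tested. Without the low-count filter the average and between-month tests cover more miRNAs.

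The replicate numbers did not pair the libraries (median correlation 0.0238, 2 of 12 over 0.1, 4 of 12 nickel libraries closest to their own number). With a replicate block edgeR called 0 at each month, 8 in the average and 10 between months. Leaving out each library in turn gave 0 to 1 calls at 1 month, 0 to 0 at 3 and at 6 months, 0 to 19 in the average and 0 to 7 between months.

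Without shallow libraries, chosen after seeing the data for these measures, the log10 total differed by -0.102 at 1 month and 0.513 at 3 months, the number of miRNAs detected by -24.25 and 46, and the red-cell ratio at 1 month by 0.154. At a common depth the detected numbers differed by -25.3 and 43.7. Leaving out each library gave total differences of -0.102 to 0.630, -0.323 to 0.513 and -0.0930 to 0.134 at 1, 3 and 6 months, detected differences of -24.25 to 44.75, 9 to 46 and 26.5 to 59.4, and red-cell differences of -3.36 to 0.154, -3.28 to 0.209 and -2.10 to -0.777. Over all miRNAs tested the median log2 difference with TMM, RLE, TMMwsp and no scaling factor was 0.230, 0.0621, 0.280 and -0.263 at 1 month, 0.512, 0.299, 0.866 and 0.557 at 3 months, and 0.309, 0.277, 0.131 and 0.169 at 6 months, so directions of single miRNAs at 1 month depend on the scaling. At 3 months, 115671 to 214004 counts per cobalt library limit what a count of 0 can show.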

Other observations

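The miR-17-92 family, known for its role in cell proliferation, lay lower with nickel at 6 months in 7 of 9 members tested, with 1 higher. The median log2 was -1.03, beside 0.31 over all 272 miRNAs, of which 112 were lower with nickel. None of the members passed edgeR's test, and DESeq2 called miR-19b-3p, higher with nickel. Among the lower ones, miR-92a-3p, miR-25-3p and miR-363-3p are also on the red-cell list, so the lists are not independent. The fibrosis list lay higher with nickel in all 8 members at 6 months (median log2 0.46, beside 0.31 over all miRNAs; 7 of 8 with DESeq2). At 1 month it was 8 of 8 with TMM, 3 of 8 with no scaling factor and 4 of 8 without the shallow library.

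At 3 months detection leaned towards nickel. There, 22 miRNAs (11.5% of those read in any nickel or cobalt library of the month) were present in at least 2 nickel libraries and in no cobalt library, and 1 (0.521%) the reverse. At 1 month these numbers were 6 (1.7%) and 11 (3.12%), and at 6 months 17 (4.99%) and 4 (1.17%). The miRNAs whose counts come in steps made up 1.91% to 13.7% of the counts of a nickel or cobalt library.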
